A study of Mus musculus with 48 samples.

Results

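The genes described here make prostaglandins, and they were measured in mouse fibroblast lines with and without tristetraprolin. Of 6 genes chosen by symbol (Ptgs1, Ptgs2, Ptges, Ptges2, Ptges3 and Pla2g4a), 4 had a probe set annotated to that symbol alone. They account for 7 probe sets: 2 for Ptgs2, 3 for Ptges, 1 for Ptges2 and 1 for Pla2g4a. All 7 lay among the 27500 probe sets tested, out of 45101 on the array. The 2 probe sets of Ptges3 are shared with its pseudogene in the annotation and were left out. Ptgs1 is not analysed here, since the annotation used lists no probe set under it.

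The WT line (Zfp36 +/+) and the KO line (Zfp36 -/-) came from littermate embryos of day E14.5, of 129/B6 background and TTP +/- parents, from the body without head and organs. The Zfp36 product, tristetraprolin (TTP), attaches to AU-rich stretches of messenger RNA and hastens their decay. The labels point to a single line of each genotype, so the genotype and other differences between the lines cannot be told apart. Every group had passed 16 h in 0.5% serum and 90 min in 10% serum, and then 0, 30, 60, 90 or 120 min of actinomycin D, which blocks transcription. Its dose differs within the labels, which give 5 ug/ml, 5 mg/ml and 0.5 ug/ml. KO at 0 min and KO at 60 min had n = 4 arrays and the other 8 groups n = 5, from 5 experiments in all, and each array carried RNA of 3 pooled dishes. Nothing in the labels says that the dishes of different experiments came from separate animals, so p-values measure the spread between repeat experiments on these lines.

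Prostaglandins are lipid signals made on demand from arachidonic acid. Pla2g4a encodes cytosolic phospholipase A2, which frees arachidonic acid from membranes, and Ptgs2 encodes the inducible cyclooxygenase, which turns it into prostaglandin H2. Ptges and Ptges2 encode membrane-bound enzymes that turn prostaglandin H2 into prostaglandin E2. In fibroblasts Ptgs2 is an early response gene to serum, and its messenger RNA carries AU-rich elements and is a reported TTP target.

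The values are deposited log2 signals. Array medians lay between 8.47 and 8.56 and the highest signal on any array was 13.43. The 5th percentile of the arrays reached 8.13, and differences near that floor are compressed. Zfp36 itself gave 9.86 ± 0.16 (SD, n = 5) in WT and 9.51 ± 0.16 (SD, n = 4) in KO at 0 min. Which exons its probe set covers is not known here, and this signal is no check of the genotype. Of 12 fibroblast markers 11 lay above the highest array median in at least 1 group, and Thy1 did not. The fibroblast list averaged 11.03 to 11.12 over the WT groups and 10.97 to 11.05 over the KO groups. Single markers moved in opposite directions at 0 min: Postn was lower in KO (-1.97; limma adjusted p = 7.25e-07), as were Pdgfrb (-0.26) and Vim (-0.16), while Pdgfra (1.18; adjusted p = 3.65e-13) and Lum (0.40) were higher. The part of these differences in the results below was not tested. Of 10 macrophage and blood markers 4 lay above that median, and their list averaged 8.45 to 8.51 in WT and 8.48 to 8.49 in KO. Above it lay 4 of 6 epithelial, 4 of 6 muscle and 1 of 7 endothelial markers, and none of the tested markers in these 4 lists was called at 0 min. The epithelial list averaged 8.48 to 8.53 in WT and 8.44 to 8.47 in KO. For muscle this was 8.68 to 8.77 and 8.67 to 8.72, and for endothelial 8.32 to 8.37 and 8.30 to 8.34. The share of all probe sets above that median in at least 1 group is not given here.

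Before actinomycin D, Ptgs2 and Pla2g4a were higher in the KO line, and Ptges and Ptges2 were lower. All 7 probe sets passed the threshold at 0 min, 3 above and 4 below WT (limma, Benjamini-Hochberg adjusted p under 0.05 over all tested probe sets). Over all probe sets tested, 25.3% were called at 0 min, 13.4% higher and 11.9% lower in KO. The median of the 7 differences was -0.18, against 0.01 over all tested probe sets. The same 7 probe sets were called, in the same directions, at 30 min, where 26.5% of all probe sets were called, and at 120 min, where 32.2% were (18.7% higher and 13.4% lower). At 30 min Ptges probe set 2 lost its call without experiment 3 (-0.11; adjusted p = 0.0875), and Ptges probe set 3 lost it without experiment 1 (-0.15; adjusted p = 0.0737) or 2 (-0.14; adjusted p = 0.0879). At 120 min Ptges probe set 3 lost it without experiment 3 (-0.16; adjusted p = 0.0504) and with a floor subtracted from each array (-0.37; adjusted p = 0.0672). The 7 share arrays and, for Ptgs2 and Ptges, a gene, so they are not 7 separate observations.

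**Figure D1:**
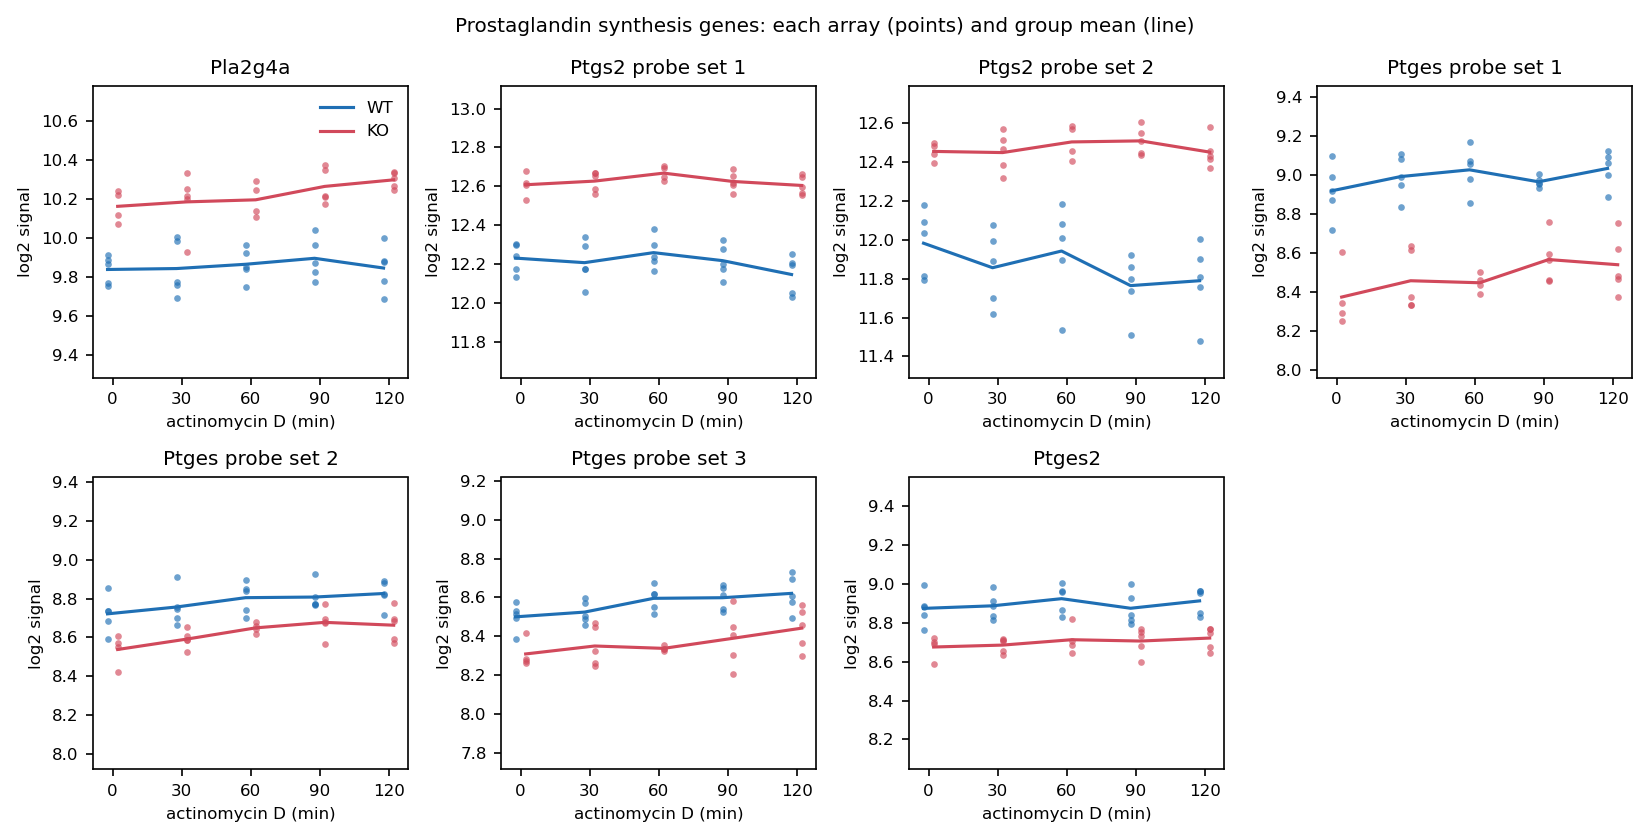
Log2 signal (vertical axis) against minutes of actinomycin D (horizontal axis) for the 7 probe sets. Points are single arrays and lines join the group means, in blue for WT and red for KO. Each panel spans the same height in log2 units but starts at its own level. The red line runs above the blue one for Pla2g4a and both Ptgs2 probe sets and below it for Ptges and Ptges2.

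Pla2g4a acts first in the pathway. At 0 min its signals were 9.91, 9.88, 9.77, 9.75 and 9.87 in WT and 10.24, 10.07, 10.22 and 10.12 in KO. Every KO array lay above every WT array. The difference was 0.32 (SE 0.07, a 1.25-fold higher signal; limma adjusted p = 3.28e-04). At 120 min the signals were 9.69, 9.88, 9.78, 9.88 and 10.00 in WT and 10.33, 10.27, 10.34, 10.31 and 10.24 in KO. The lines were again apart, and the difference was 0.45 (SE 0.07, 1.37-fold; adjusted p = 4.08e-07). The groups overlapped at 30 min, where the lowest KO array, at 9.93, fell between the WT arrays, and were apart at the other 4 times.

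Ptgs2, the inducible cyclooxygenase, was among the brightest genes on the arrays. Only 133 of the 27500 tested probe sets had a higher mean signal than its probe set 1 and 202 a higher mean than its probe set 2. At 0 min probe set 1 gave 12.24, 12.13, 12.30, 12.18 and 12.30 in WT and 12.61, 12.62, 12.53 and 12.68 in KO. The KO arrays all lay above the WT arrays. The difference was 0.38 (SE 0.05, 1.30-fold; adjusted p = 6.92e-08). Probe set 2 gave 12.18, 12.09, 12.03, 11.82 and 11.80 in WT and 12.40, 12.50, 12.44 and 12.48 in KO. Here too the lines did not overlap, and the difference was 0.47 (SE 0.10, 1.39-fold; adjusted p = 1.93e-04).

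At 120 min probe set 1 of Ptgs2 gave 12.05, 12.25, 12.21, 12.03 and 12.19 in WT and 12.65, 12.56, 12.55, 12.66 and 12.59 in KO. Probe set 2 gave 12.00, 11.76, 11.90, 11.48 and 11.81 in WT and 12.42, 12.58, 12.43, 12.46 and 12.37 in KO. Both probe sets kept the lines apart after 120 min without new transcription. The differences were 0.46 (SE 0.05, 1.37-fold; adjusted p = 1.16e-10) for probe set 1 and 0.66 (SE 0.09, 1.58-fold; adjusted p = 1.66e-07) for probe set 2.

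Over the 10 groups, Ptgs2 probe set 1 fell into 2 separate sets of levels. The KO means were 12.61 ± 0.06 at 0 min, 12.63 ± 0.05 at 30 min, 12.67 ± 0.04 at 60 min, 12.63 ± 0.05 at 90 min and 12.60 ± 0.05 at 120 min (SD). The WT means were 12.23 ± 0.07, 12.21 ± 0.11, 12.26 ± 0.08, 12.22 ± 0.09 and 12.15 ± 0.10 at the same times. Neighbouring levels overlapped array by array within each line, and the lowest KO array over all times, at 12.53, lay above the highest WT array, at 12.38. Probe set 2 showed the same order, with KO arrays from 12.32 to 12.61 and WT arrays from 11.48 to 12.19. Over all tested probe sets 8.46% kept the lines apart at each time taken singly. The share that kept them apart over all times together is not given here. The spread of probe set 2 was wider in WT, where the SD of a group ran up to 0.25. Whether the Ptgs2 signals were saturated was not tested.

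Ptges encodes the inducible prostaglandin E synthase, the enzyme usually coupled to the Ptgs2 product. Its probe set 1 gave 9.10, 8.99, 8.92, 8.87 and 8.72 in WT at 0 min and 8.25, 8.29, 8.35 and 8.61 in KO. Every KO array lay below every WT array. The difference of -0.55 (SE 0.08, a signal 1.46-fold lower in KO; adjusted p = 2.96e-07) exceeded in size that of each other member at 0 min, though without experiment 1 it was -0.46, against 0.54 for Ptgs2 probe set 2. At 120 min probe set 1 gave 9.10, 8.89, 9.13, 9.06 and 9.00 in WT and 8.37, 8.48, 8.47, 8.75 and 8.62 in KO, again without overlap. The difference was -0.50 (SE 0.07; adjusted p = 5.71e-07). The other probe sets of Ptges had the same direction and smaller differences. They were -0.18 for probe set 2 (adjusted p = 0.00453) and -0.19 for probe set 3 (adjusted p = 0.00922) at 0 min. Probe set 3 lay near the floor, with KO means between 8.31 and 8.44. Without experiment 1 neither passed at 0 min, with -0.11 (adjusted p = 0.191) and -0.17 (adjusted p = 0.0599), and without experiment 2 probe set 3 did not, with -0.16 (adjusted p = 0.0750).

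With a floor subtracted from each array on the linear scale, the Ptges probe set 1 difference at 0 min became -1.22 (adjusted p = 1.10e-04 or lower in every alternative run), more than 1.5 times its size on the deposited scale. The differences of Ptges probe sets 2 and 3 and of Ptges2 grew likewise, to -0.40, -0.52 and -0.39. At 120 min the 4 differences became -0.96, -0.29 and -0.37 for Ptges probe sets 1, 2 and 3 and -0.33 for Ptges2.

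Ptges2 encodes a prostaglandin E synthase that is present without induction. At 0 min it gave 8.99, 8.88, 8.89, 8.84 and 8.77 in WT and 8.72, 8.69, 8.59 and 8.70 in KO. The lines were narrowly apart, by 0.04 between the lowest WT and the highest KO array. The difference was -0.20 (SE 0.05, 1.15-fold lower; adjusted p = 9.30e-04), and it was -0.19 (SE 0.04; adjusted p = 6.22e-04) at 120 min. The KO arrays of Ptges2 at 120 min, from 8.65 to 8.77, all lay below the WT arrays, from 8.83 to 8.97.

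Ptgs2 probe sets 1 and 2, Ptges probe set 1 and Ptges2 kept the lines apart at each of the 5 times. Over all tested probe sets 8.46% did so, 18% had lines apart at 0 min and 21% at 120 min. Ptges probe set 2 was apart at 2 of 5 times and Ptges probe set 3 at 1. Both lines were run side by side in 5 experiments. In each of the 5 the mean KO minus WT difference lay above 0 for Pla2g4a and Ptgs2 and below 0 for Ptges and Ptges2. Single pairs of same-numbered arrays reached 0.001 for Ptges probe set 2 and 0.057 for probe set 3. The share of all tested probe sets with such agreement is not given here. For Ptgs2 the mean difference of an experiment ran from 0.31 to 0.58 for probe set 1 and from 0.46 to 0.88 for probe set 2. For Ptges probe set 1 it ran from -0.73 to -0.28.

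**Figure D2:**
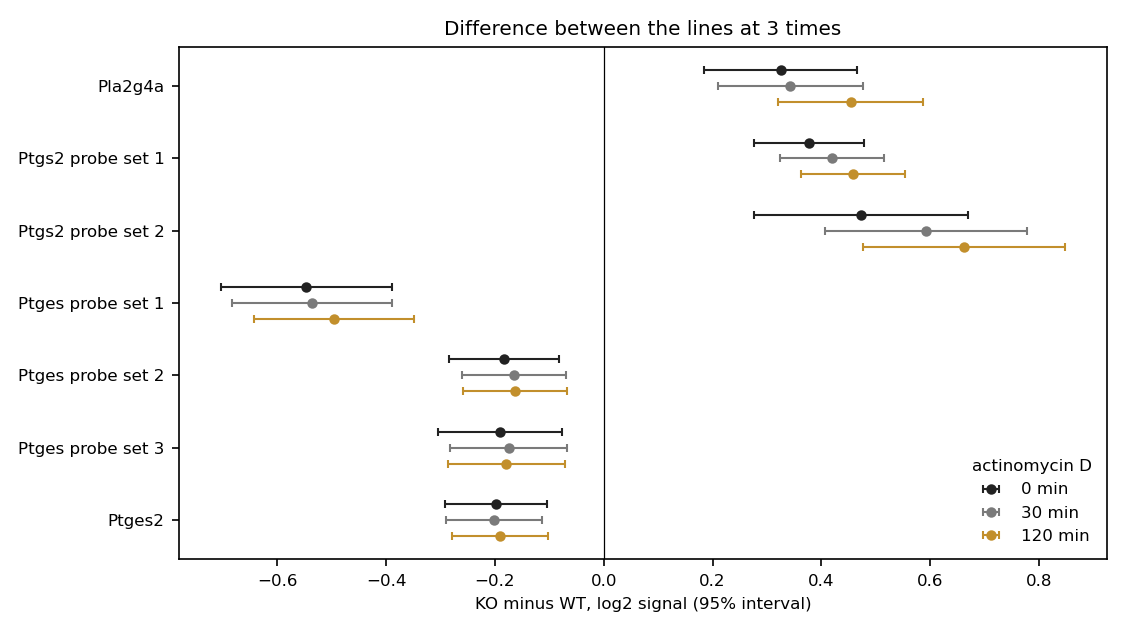
KO minus WT in log2 signal (horizontal axis) for the 7 probe sets at 0, 30 and 120 min of actinomycin D. Points are the limma estimates and bars their 95% intervals. The 3 upper probe sets lie to the right of 0 and the 4 lower ones to the left at each of the 3 times.

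The actinomycin D series asks how fast each messenger RNA was lost and whether loss differed between the lines. Ptgs2 was not called for a change over 120 min in either line. The change of probe set 1 was -0.08 (95% interval -0.18 to 0.01; adjusted p = 0.204) in WT and -0.0036 (-0.10 to 0.10; adjusted p = 0.973) in KO. The change of probe set 2 was -0.19 (-0.38 to -0.0074; adjusted p = 0.129) in WT and -0.0036 (-0.20 to 0.19; adjusted p = 0.987) in KO. No probe set of the 7 was called for its change over 120 min in WT, where 24% of all tested probe sets were, or in KO, where 22.5% were. At an unadjusted limma p under 0.05 there were 3 in WT and 3 in KO. In WT these were the fall of Ptgs2 probe set 2 and rises of Ptges probe sets 2 (0.10) and 3 (0.12). In KO all 3 were rises, of Ptges probe sets 1 (0.17), 2 (0.12) and 3 (0.13). The share of all tested probe sets under this unadjusted cut is not given here.

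A straight line through all 5 times used more arrays. For Ptgs2 probe set 2 in WT its slope was -0.10 log2 per h (95% interval -0.18 to -0.015; limma adjusted p = 0.0680). With the experiment as a random effect the same slope passed, at an adjusted p of 0.0328. That setting called 34.9% of all tested probe sets for their WT slope, against 29%. The slope of this probe set lay below 0 in 5 of 5 experiments in WT, from -0.16 to -0.01, and in 2 of 5 in KO. At the lower end of the interval the signal would drop by 1 log2 unit in 340 min, the shortest time that it allows. For probe set 1 in WT the slope was -0.03 (-0.07 to 0.01; adjusted p = 0.272), and the shortest time allowed for such a drop was 811 min. In KO the slopes were -0.0035 for probe set 1 and 0.01 for probe set 2, with adjusted p of 0.940 and 0.907.

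No member was called for a difference of slopes between the lines, where 1.04% of all tested probe sets were called. None of the 7 had an unadjusted p under 0.05, a cut whose share of all tested probe sets is not given here. The lowest adjusted p was 0.636, for Ptgs2 probe set 2. Its slope was 0.11 log2 per h higher in KO than in WT (95% interval -0.01 to 0.22), and higher in KO in 4 of 5 experiments. For Ptgs2 probe set 1 the difference was 0.03 (-0.03 to 0.09), and for Pla2g4a 0.06 (-0.02 to 0.14), each again above 0 in 4 of 5 experiments. This did not set them apart. Ptges probe sets 1 (0.05, -0.05 to 0.14) and 3 (-0.0018, -0.07 to 0.06) were also above 0 in 4 of 5. Ptges probe set 2 and Ptges2 were so in 3 of 5. These intervals bound the difference but do not show equal loss. Ier3, an immediate-early gene, is given beside them as a transcript with a called difference, which does not show what could be detected for Ptgs2. It began at 12.30 ± 0.06 in WT and 12.35 ± 0.05 in KO, and its slope was 0.88 higher in KO (95% interval 0.70 to 1.07; adjusted p = 2.75e-09). By 120 min Ier3 stood at 9.94 ± 0.23 in WT and 11.59 ± 0.10 in KO.

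The slopes of the 3 Ptges probe sets lay above 0 in both lines, and some of them were called. Slopes above 0 were called for 2 of the 7 probe sets in WT, Ptges probe sets 2 and 3, against 13.9% of all tested probe sets (29% in either direction). In KO 3 of the 7 were called above 0, all of them Ptges, against 15% (27.3% in either direction). The slopes ran from 0.05 to 0.06 log2 per h for those called in WT and from 0.06 to 0.09 in KO, with adjusted p between 0.0157 and 0.0481. With a floor subtracted the slopes in WT became 0.09 for probe set 2 and 0.13 for probe set 3. Those in KO became 0.23, 0.14 and 0.16 for probe sets 1, 2 and 3. The WT slopes then missed the threshold (limma adjusted p = 0.0973 and 0.161), as did probe set 3 in KO (0.0819). Under this setting 26.6% of all tested probe sets were called in WT and 25.2% in KO. Probe set 3 in KO also missed it with plain empirical Bayes (adjusted p = 0.0523). These calls depended on the times and experiments used. Over 30 to 120 min alone and over 0 to 60 min alone 0 of the 7 were called in either line. Without experiment 3, 4 or 5 the count in WT was 0. In KO it was 1 without experiment 1, 3 or 4 and 0 without experiment 2, and without experiment 5 it was 2, Ptges probe set 2 and Pla2g4a. The slope of Pla2g4a in KO was 0.07 (95% interval 0.01 to 0.13; adjusted p = 0.0624). It passed with the experiment as a random effect (adjusted p = 0.0475), where 33% of all tested probe sets were called. The test of each line's slope was added after the values were seen. The signals are relative to the rest of the array, so an upward slope is not a measure of new RNA. Between 0 and 120 min Ptges probe set 2 went from 8.54 ± 0.08 to 8.66 ± 0.08 in KO, a change of 0.12 that just missed the threshold (adjusted p = 0.0665). It passed with the experiment as a random effect (adjusted p = 0.0358), where 29.4% of all tested probe sets were called, against 22.5%.

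In the first 30 min of actinomycin D the changes were small. They ran from -0.13 to 0.07 in WT and from -0.006 to 0.08 in KO over the 7 probe sets. None was called, against 1.81% of all tested probe sets in WT and 1.28% in KO, and none had an unadjusted p under 0.05. The share of all tested probe sets under that unadjusted cut is not given here. The change of the first 30 min did not differ between the lines past the threshold for any of the 7, against 0.0327% of all tested probe sets. For Ptgs2 probe set 2 that difference was 0.12 (95% interval -0.15 to 0.39).

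**Figure D3:**
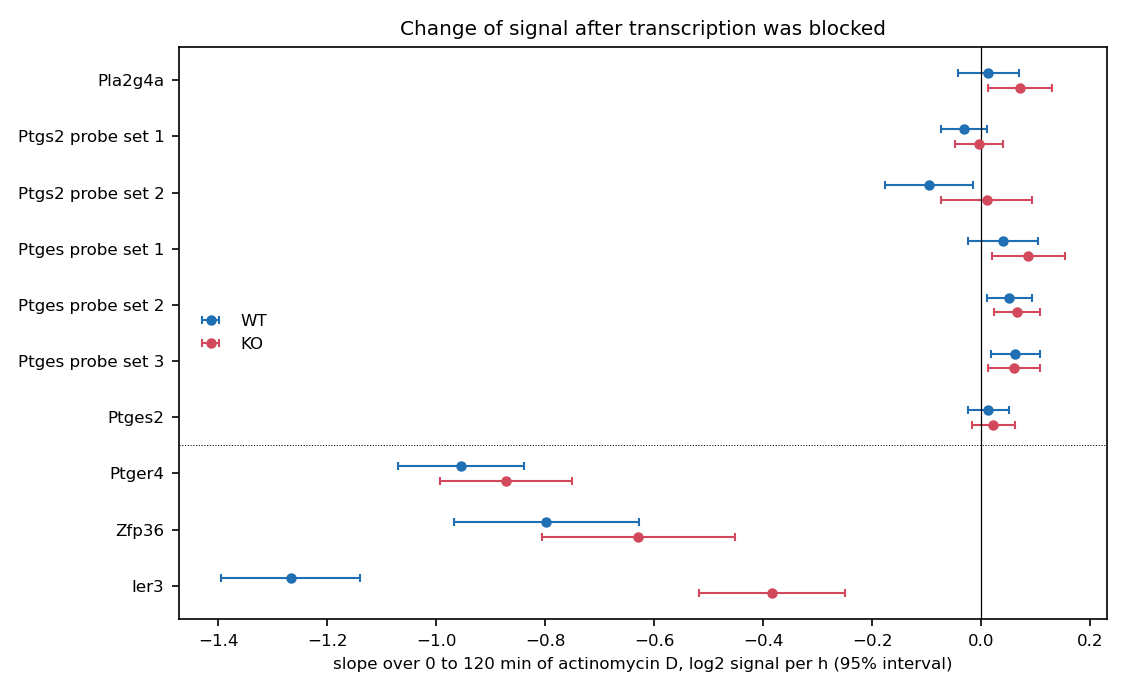
Slope of log2 signal per h over 0 to 120 min of actinomycin D (horizontal axis) in WT (blue) and KO (red), with 95% intervals. The 7 prostaglandin probe sets lie between -0.10 and 0.09, while Ptger4 fell by 0.95 and 0.87 per h in WT and KO, and Ier3 by 1.27 and 0.38.

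Ptgs2 and Pla2g4a, the members that were higher in KO, lie side by side on mouse chromosome 1. In the GRCm38.p6 annotation Pla2g4a spans chr1:149829618-149961290 on the minus strand and Ptgs2 spans chr1:150100031-150108234 on the plus strand, so that they point away from each other. The 138740 bases between them hold 2 annotated genes, a pseudogene and the long non-coding RNA Ptgs2os. With these 2 included, 27 annotated genes besides the pair lie between them or within 1 Mb on either side. Of the 27, 5 are protein coding and 2 were tested. Pdc, at 8.43 in WT and 8.45 in KO, was not called (0.03; adjusted p = 0.574), and Odr4 was lower in KO (-0.27; adjusted p = 0.0354). Ptges (chr2:30889471-30931020) and Ptges2 (chr2:32395890-32402740), the members lower in KO, lie on chromosome 2, 1464869 bases apart.

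The sequence before the start of the neighbouring pair is shown because both genes were higher in KO. Bases are 5′ to 3′ on the gene's strand, from RefSeq windows on GRCm38.p6, and all 4 members matched. Capitals mark matches, on either strand, to the 4 motifs searched. The cAMP response half-site was searched as CGTCA. The E-box was searched as CACGTG, which reads alike on both strands. The TATA box was searched as TATAAA. The C/EBP palindrome was searched as TTGCGCAA. The Ptgs2 stretch is chr1:150099881-150100030 on the plus strand, and the Pla2g4a stretch is chr1:149961291-149961440 on the minus strand.
Ptgs2: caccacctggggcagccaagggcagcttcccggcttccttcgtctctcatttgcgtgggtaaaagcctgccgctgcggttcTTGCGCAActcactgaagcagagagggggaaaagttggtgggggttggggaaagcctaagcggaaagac
Pla2g4a: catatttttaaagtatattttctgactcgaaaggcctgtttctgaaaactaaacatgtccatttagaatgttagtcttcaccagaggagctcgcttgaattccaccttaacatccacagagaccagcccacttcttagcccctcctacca

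In Ptgs2 the palindrome TTGCGCAA lay 69 to 62 bases before the annotated start. Over all 32851 windows of 300 bases (250 before and 50 after a start), 0.183% hold it on either strand. The 4 motifs were set by hand and not drawn from these data, so this share describes the match and does not test it. The Ptgs2 window also held the half-site and the E-box, which overlap just after the annotated start, in the 30 bases of chr1:150100031-150100060.
Ptgs2 first bases: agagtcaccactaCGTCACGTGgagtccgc
Of all windows 20.8% hold the half-site on either strand and 7.15% hold the E-box. The Pla2g4a stretch had none of the 4 motifs. A second annotated Pla2g4a start had the TATA box letters on the other strand, a motif of 13.6% of windows, and the Ptges window had none. Ptges2 had the E-box in its window, 77 to 72 bases before the start, in chr2:32395801-32395830 on the plus strand.
Ptges2: ccatttccgcgaCACGTGgtttccaaggcc
These matches describe letters in a window, and the arrays do not measure promoter activity or binding.

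Among 463 genes whose group means spanned at least 1 log2, those most like Ptgs2 probe set 1 over the 10 group means were Rsbn1 (Pearson r = 0.997), Gpr153 (0.992), Grasp (0.990), Bhlhb9 (0.989) and Plagl1 (0.988). Each was higher in KO and moved little over 120 min, as Ptgs2 did, which follows from their choice by likeness to its means. In WT at 0 min Plagl1, Bhlhb9 (8.31) and Gpr153 (8.40) lay near the floor, which limits how far a fall could show. Plagl1, a zinc finger gene, was at 7.86 in WT and 10.10 in KO at 0 min, and Rsbn1 at 9.16 and 10.00. The 10 points come from the same 48 arrays and from 2 lines, so that r mainly records the split between the lines.

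Among further genes of the pathway, Ptgis, Slco2a1, Pla2g16 and Pla2g7 differed between the lines by over 1 log2. Of 48 further genes of prostanoid and lipoxygenase metabolism, 20 were tested, 26 lay under the filter on low signal and 2 had no listed probe set. At 0 min 3 of the 20 were higher in KO, 6 were lower and 11 were not called, against 13.4% higher and 11.9% lower over all tested probe sets, with a median difference of -0.05 against 0.01 over all tested probe sets. Over 120 min of actinomycin D 7 of the 20 were called above 0 and 1 below in WT, against 10% and 14% of all tested probe sets. In KO 4 were called above and 1 below, against 11.9% and 10.6%. The count of 5 in KO became 2 without experiment 2 and 3 without experiment 1, 3 or 4, and the count of 8 in WT became 5 without experiment 4. The share of all tested probe sets in KO was then 15.3% without experiment 2 and 17.3% to 17.7% without experiment 1, 3 or 4. In WT it was 17.7% without experiment 4. At an adjusted p under 0.05, none of the 20 differed in slope between the lines (lowest adjusted p = 0.264). With the experiment as a random effect 1 did, Pla2g7 (0.12 log2 per h higher in KO; adjusted p = 0.0300). That setting called 1.78% of all tested probe sets, against 1.04%. The WT group means of Pla2g7 ran from 8.28 to 8.34, near the floor, where a fall could hardly show. In the fit without the random effect its slope was -0.01 for WT and 0.10 for KO, where the signal rose. The difference for Pla2g7 therefore does not show slower loss in KO.

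Prostacyclin synthase, Ptgis, which competes with the prostaglandin E synthases for the Ptgs2 product, had the widest gap. At 0 min its WT arrays lay between 10.28 and 10.68 and its KO arrays between 8.25 and 8.33, near the floor. The means were 10.50 ± 0.17 (SD, n = 5) and 8.28 ± 0.04 (SD, n = 4), a difference of -2.22 (SE 0.10; adjusted p = 2.40e-22). The size depends on the floor: with a floor subtracted the difference was -3.66. The other terminal synthases tested, Ptgds (0.31; adjusted p = 0.0612), Cbr1 (0.05; adjusted p = 0.428) and Tbxas1 (-0.07; adjusted p = 0.339), were not called.

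Among phospholipases, 2 were higher in KO and 2 lower. Pla2g7, which degrades platelet-activating factor, was higher by 1.01 (SE 0.07; adjusted p = 1.25e-15), from 8.34 ± 0.06 in WT, near the floor, to 9.35 ± 0.07 in KO. With a floor subtracted the difference was 2.00. Pla2g15, a lysosomal enzyme, was higher by 0.29 (SE 0.06; adjusted p = 7.47e-05). Pla2g16 was lower by 1.23 on the log2 scale (estimate -1.23, SE 0.06; adjusted p = 4.55e-20), with 9.96 ± 0.04 in WT and 8.74 ± 0.04 in KO. Pla2g6 was lower by a small margin (-0.18; adjusted p = 0.0336), a call lost without experiment 2, 4 or 5 and with a floor subtracted (adjusted p = 0.0573 to 0.281 over these 4 settings). Subtracting a floor also widened the differences of Pla2g15 to 0.56, Pla2g16 to -1.88 and Pla2g6 to -0.30.

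Genes of prostaglandin uptake and breakdown also differed. Slco2a1, the transporter that takes prostaglandins into cells, was at 10.08 ± 0.21 in WT and 8.53 ± 0.07 in KO (-1.55, SE 0.08; adjusted p = 1.84e-19). Abcc4, which exports them, was lower by a smaller amount (-0.21; adjusted p = 0.00325). Ptgr1, a reductase of prostaglandin breakdown, was higher in KO (0.64, SE 0.06; adjusted p = 2.22e-11), and Ptgr2 was not called (0.02; adjusted p = 0.832). With a floor subtracted the difference was -2.49 for Slco2a1 and -0.37 for Abcc4. None of the 3 tested genes of the lipoxygenase arm, Alox5ap, Alox12 and Lta4h, was called at 0 min.

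The receptors held the one pathway transcript that was lost quickly. Ptger4, a receptor for prostaglandin E2, stood at 10.61 ± 0.19 in WT and 10.58 ± 0.15 in KO at 0 min and at 8.76 ± 0.16 and 8.87 ± 0.19 at 120 min. It fell by 1.85 in WT (SE 0.12; adjusted p = 2.24e-17) and it fell by 1.70 in KO (SE 0.12; adjusted p = 4.09e-15). The signal ended closer to the floor, where differences are compressed. Over the 12 alternatives run, the change of Ptger4 reached -2.68 in WT and -2.37 in KO. Its slopes, -0.95 and -0.87 log2 per h, differed by 0.08 (95% interval -0.09 to 0.25; adjusted p = 0.827). At 0 min it did not pass the test between the lines (-0.03; adjusted p = 0.900). Pparg, a nuclear receptor that binds prostaglandin metabolites, was lower in KO at 0 min (-0.57, SE 0.07; adjusted p = 3.94e-08; -1.15 with a floor subtracted), and Ptger1 was not called (0.02; adjusted p = 0.815).

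**Figure D4:**
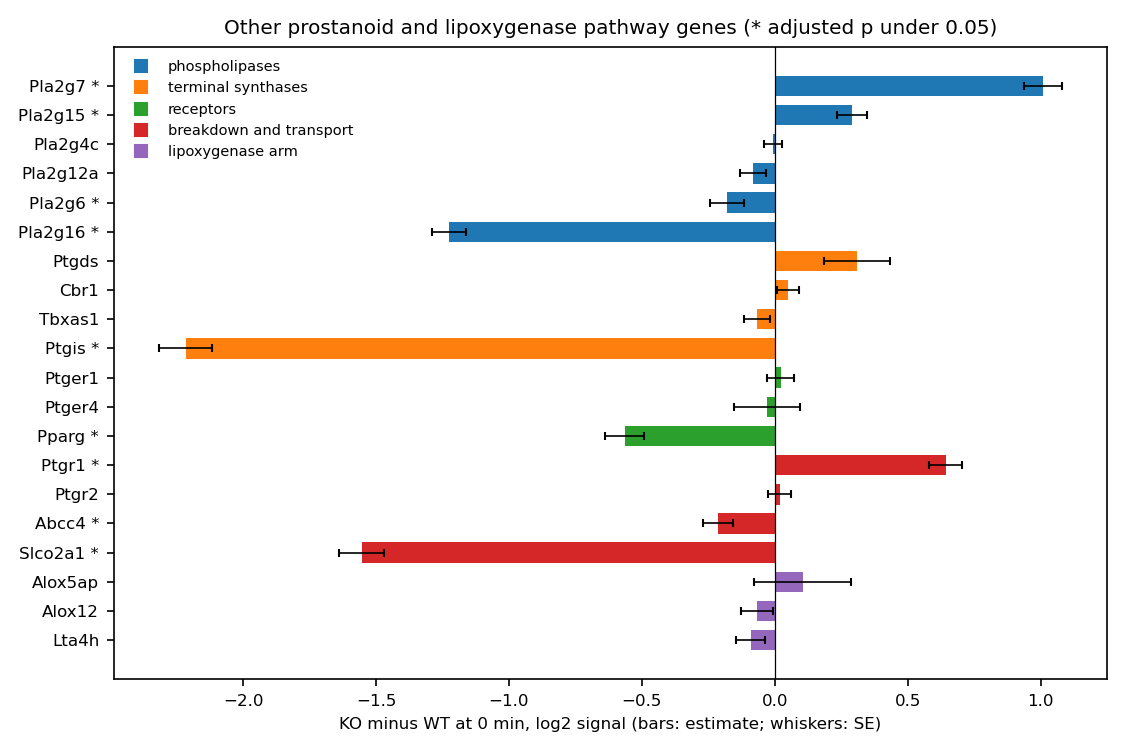
KO minus WT at 0 min in log2 signal (horizontal axis) for the 20 tested pathway genes, coloured by role. Bars show the limma estimate and whiskers its SE, and an asterisk marks an adjusted p under 0.05. The bars run from -2.22 for Ptgis to 1.01 for Pla2g7.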

How the data were processed

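Per the labels' protocols, RNA (1 ug) was amplified, and Affymetrix mouse genome arrays took 15 ug of cRNA for 16 h and were read with version 1.2.0.037 of the GeneChip Operating Software. The authors deposited log2 signals per probe set; the log base was inferred from their range, and the authors' probe summary, background correction and normalization are not given in the sources used here. The test covered probe sets that exceeded the median of the array on 4 or more arrays, without 64 control probe sets. limma 3.58.1 (R 4.3.3, with the package data.table at version 1.17.8; trend and robust empirical Bayes) was fitted over all 48 arrays, with 1 mean per group or a straight line on hours per line, two-sided, Benjamini-Hochberg adjusted over 27500 probe sets. The procedure was tested on simulated data with independent noise, without a shared experiment effect, and with larger slope differences than those of the members. It does not show what could be detected for the members. No depth applies, and the number of arrays limits the precision. Members and gene lists were chosen with earlier results of these data known. The text names every member, the pathway genes called at 0 min, and the 5 genes most like Ptgs2; the other pathway genes with values, Ptger4 included, were added after their values were seen. For a gene with several probe sets outside the members, the one with the highest mean was used. Alternatives were a replicate block, a random experiment effect, 2 filters, background subtraction, quantile normalization, plain empirical Bayes, other times and leaving out each experiment. The replicate number was read as the experiment. Deviations of same-numbered WT and KO arrays correlated between -0.25 and 0.60 (median 0.17, over 0.1 in 16 of 23 pairs), and no 2 arrays held identical values.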

Additional observations from a re-analysis of the deposited data

Results flagged for a closer look

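Among 70 groups of arrays (7 probe sets in 10 groups), 2 held an array far from the others by Dixon's criterion, which chance meets in about 1 in 20 groups. Both concern Ptges. In WT at 90 min, Ptges probe set 2 read 8.925 in experiment 3, above the other 4 arrays, of which the nearest read 8.81. In KO at 0 min, Ptges probe set 3 read 8.418 in experiment 4, and the nearest of the other 3 arrays read 8.28.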

How the results depend on the processing

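At 0, 30 and 120 min the differences between the lines kept their direction and their call for Ptgs2 probe sets 1 and 2, Pla2g4a, Ptges probe set 1 and Ptges2 under all 12 alternatives run. Ptges probe sets 2 and 3 kept their direction there and lost some calls, mostly without experiment 1, 2 or 3. The count of members called for a change over 120 min in KO was 1 in place of 0, Ptges probe set 2 each time, with the replicate block (adjusted p = 0.0389), with background subtracted (0.0376), with quantile normalization (0.0495) and with the experiment as a random effect (0.0358). Over all tested probe sets the shares called in KO were 30.5%, 20.5%, 22.2% and 29.4% under these settings in turn, against 22.5%. In WT the count was 1 with quantile normalization (adjusted p = 0.0350), where 28.5% of all tested probe sets were called, against 24%. Leaving out experiments in turn gave 0 to 1 in KO, with 15.3% to 21.6% of all tested probe sets called. The count of pathway genes with a slope difference was 2 with the replicate block (Pla2g7 and Pparg) and 1 with the random effect, in place of 0, and that with a change over 120 min in WT was 5 with background subtracted, in place of 8. The share of all tested probe sets with a slope difference was 1.94% with the block and 1.78% with the random effect, against 1.04%. For the change over 120 min in WT it was 22.2% with background subtracted, against 24%. Leaving out experiments gave 5 to 7 pathway genes with that change in WT and 2 to 5 in KO. The shares of all tested probe sets were then 17.7% to 26% and 15.3% to 21.6%. The count of members with a slope of their own, 2 in WT and 3 in KO, was 1 and 1 without the filter on low values, 0 in WT with background subtracted, 0 and 0 over 30 to 120 min, and 0 and 0 over 0 to 60 min. In KO Ptges probe set 3 lost its call with background subtracted (adjusted p = 0.0819) and with plain empirical Bayes (0.0523). Without the filter 17.9% of all tested probe sets were called in WT and 16% in KO, against 29% and 27.3%. Leaving out experiments gave 0 to 2 members in WT and 0 to 2 in KO, against 23.2% to 31.5% and 20.5% to 27.1%. With the replicate block the WT slope of Ptgs2 probe set 2 passed as well (adjusted p = 0.0306). That setting called 35.9% of all tested probe sets, against 29%. Apart from these cases and the slope differences of the pathway genes, the block changed no call on the members. The cause of these changes was not tested.

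Values that changed sign were near 0 and not called in either setting. For Ptges2, the first 30 min change between the lines became 0.0065 with the replicate block, 0.0050 with background subtracted and 0.0036 with the random effect, and its slope difference -0.00385 with quantile normalization and -0.0125 over 0 to 60 min. For Ptges probe set 3, the slope difference became 0.0342 with background subtracted, 0.0060 with quantile normalization and 0.0058 over 30 to 120 min. For Ptges probe set 1, the first 30 min difference became -0.0060 with quantile normalization and the slope difference -0.0347 over 0 to 60 min. For Pla2g4a in WT, the change over 120 min became -0.00239 with background subtracted and that over 30 min -0.00366 with quantile normalization. The Ptgs2 slopes became -0.0166 for probe set 2 in KO with quantile normalization, and 0.0282 in WT and 0.0598 in KO for probe set 1 over 0 to 60 min.

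Leaving out each experiment in turn gave these ranges across 0. For the change over 120 min they were -0.0240 to 0.0663 for Pla2g4a in WT, -0.0173 to 0.0098 for Ptgs2 probe set 1 in KO and -0.02075 to 0.0170 for Ptgs2 probe set 2 in KO. For the first 30 min in WT they were -0.0285 to 0.0335 for Pla2g4a, -0.0013 to 0.0330 for Ptges2 and -0.0415 to 0.0020 for Ptgs2 probe set 1. For the first 30 min in KO they were -0.0243 to 0.0332 for Ptges2, -0.0173 to 0.0355 for Ptgs2 probe set 1 and -0.0554 to 0.0229 for Ptgs2 probe set 2. For the difference of these changes they were -0.0041 to 0.0348 for Pla2g4a, -0.0525 to 0.062583 for Ptges probe set 1, -0.0538 to 0.0818 for Ptges probe set 2, -0.0150 to 0.03925 for Ptges probe set 3, -0.0350 to 0.0144 for Ptges2 and -0.0193 to 0.0750 for Ptgs2 probe set 1. For the slope difference they were -0.00911 to 0.0304 for Ptges probe set 2, -0.00725 to 0.00710 for Ptges probe set 3 and -0.00713 to 0.020376 for Ptges2. For the slope of 1 line they were -0.0012 to 0.0503 for Pla2g4a in WT, -0.010217 to 0.00681 for Ptgs2 probe set 1 in KO and -0.0017 to 0.0192 for Ptgs2 probe set 2 in KO. Signals near the floor, those of Ptges among them, limit how far a difference can show.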
